A study of Homo sapiens with 4 samples.

Results

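The 10 genes described here encode the MYC-MAX network of transcription factors and a pair of glucose-responsive genes, TXNIP and ARRDC4. They were picked by name from the 47432 genes of the table: MYC, its partner MAX, the antagonists MXD1, MXI1, MXD3, MXD4 and MNT, the glucose sensor MLXIP, and TXNIP and ARRDC4. All 10 were found and all 10 passed the filter for testing. T24, an established line of invasive human bladder carcinoma cells, was profiled in 2 libraries of cells given isorhapontigenin (ISO), a stilbene related to resveratrol, at 20 µM for 24 h, and in 2 libraries of control cells. The sample labels describe the control cells as untreated, whereas the study's methods name DMSO as the vehicle, and the labels and the methods also name different culture media. Whether libraries a and b of either group stem from different cultures is not stated, and the p-values below therefore cover the variation of these libraries alone, which may be technical.

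Proteins of this network carry a basic helix-loop-helix leucine zipper, with which they pair and bind DNA at E-boxes. MYC paired with MAX activates genes of growth and biosynthesis. The MXD proteins and MNT compete for MAX and bring SIN3 co-repressors with histone deacetylases to the same sites. MLXIP, also called MondoA, pairs with MLX instead, moves to the nucleus when glucose 6-phosphate is high, and activates TXNIP and ARRDC4 through carbohydrate response elements. TXNIP and ARRDC4 are alpha-arrestins that restrain glucose uptake, and TXNIP also binds thioredoxin. MXI1 is known as a target of hypoxia-inducible factors.

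Promoters were read from RefSeq (GRCh38.p14) as the 250 bases before each annotated start, and 9 of the 10 members had 1 or more such windows, 13 in all. The 4 windows below belong to TXNIP and ARRDC4, to MXI1, which fell with ISO, and to MXD4, the antagonist with the highest level. MXI1 has 3 windows, and only the window with the letters ACGTG is shown. The other MXI1 windows held none of the motifs searched. Of the TXNIP windows, the window with the carbohydrate response element is shown. Capitals mark the E-box (CACGTG) in ARRDC4 and MXD4 and the carbohydrate response element in TXNIP. In MXI1 they mark ACGTG, 1 form of the core of a hypoxia response element, whose other form, GCGTG, was not searched.
TXNIP, chr1:145996580-145996829, minus strand: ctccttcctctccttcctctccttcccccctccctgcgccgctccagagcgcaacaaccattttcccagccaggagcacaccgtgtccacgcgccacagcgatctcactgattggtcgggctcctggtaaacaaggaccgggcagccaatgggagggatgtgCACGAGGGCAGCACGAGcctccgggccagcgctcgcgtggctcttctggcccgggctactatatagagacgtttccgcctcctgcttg
ARRDC4, chr15:97960453-97960702, plus strand: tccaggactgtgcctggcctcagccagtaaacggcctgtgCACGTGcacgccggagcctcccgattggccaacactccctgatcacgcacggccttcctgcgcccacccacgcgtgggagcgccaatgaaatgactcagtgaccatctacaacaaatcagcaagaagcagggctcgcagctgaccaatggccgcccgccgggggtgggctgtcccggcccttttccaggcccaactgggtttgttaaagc
MXI1, chr10:110209981-110210230, plus strand: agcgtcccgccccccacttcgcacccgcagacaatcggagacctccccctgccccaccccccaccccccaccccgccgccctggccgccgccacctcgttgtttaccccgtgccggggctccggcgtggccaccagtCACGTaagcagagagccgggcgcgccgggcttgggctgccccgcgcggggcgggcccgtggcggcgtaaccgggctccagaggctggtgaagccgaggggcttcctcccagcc
MXD4, chr4:2262110-2262359, minus strand: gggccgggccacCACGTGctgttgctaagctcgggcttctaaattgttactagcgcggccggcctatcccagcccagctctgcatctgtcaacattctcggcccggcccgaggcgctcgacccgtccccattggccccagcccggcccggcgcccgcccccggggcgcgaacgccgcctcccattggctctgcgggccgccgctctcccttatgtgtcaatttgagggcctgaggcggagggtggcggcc

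All 3 motifs were searched on both strands, and every E-box also contains the letters ACGTG. The carbohydrate response element was searched as CACGNG followed by 5 bases and CACGNG again, which was found in 16 of 35116 RefSeq windows of this length (0.0456%). In TXNIP it lies at -88 to -72 from the start. The E-box was found in 6.35% of all windows and, among the members, in those of MXD4 (-238), MNT (-193) and ARRDC4 (-210). The letters ACGTG were found in 18.5% of all windows and in 6 of the 13 member windows. These are the MXI1 window shown, at -113 to -109, a MAX window (-22), the second TXNIP window (-162) and the 3 windows with an E-box. A match describes the letters only, and no match says nothing of the factor.

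The depth was 39028228 and 32349827 gene reads in ISO a and ISO b, against 42879427 and 40396212 in control a and control b, recovered from the deposited RPKM. RPKM are reads scaled to the exon length of the gene and to the mapped reads of the library. They were divided here by a trimmed-mean (TMM) factor of 1.02 in ISO a and 1.03 in ISO b, against 0.975 in control a and 0.981 in control b, and all levels below are on that scale. The 15304 genes whose mean RPKM reached 0.1 were tested by limma on log2 values after adding 0.1, and a gene was called at a Benjamini-Hochberg adjusted p under 0.05. With ISO, 639 genes were called higher and 951 lower, so 40.2% of the calls were higher. Without TMM scaling 69.3% of the calls were higher, and the median gene stood at a log2 fold change of 0.06. Keratins of a simple epithelium were abundant, with KRT7 at 306 and 302 RPKM in ISO against 381 and 377 RPKM in control libraries. The urothelial markers KRT5 and KRT20 were at 0 in every library, and UPK1A, UPK1B, UPK2 and UPK3A lay at or below 0.46 RPKM. The epithelial markers CDH1 and TP63 did not reach the mean RPKM of 0.1 for testing. Of other cell types, the leukocyte markers PTPRC, CD3E and NKG7 and the fibroblast markers COL1A2, COL3A1, DCN and LUM were at 0 throughout, whereas the monocyte marker CD14 was at 3.03 and 3.58 RPKM in ISO against 3.10 and 3.04 RPKM in control libraries and COL1A1 at 0.735 and 0.963 RPKM in ISO against 0.859 and 0.829 RPKM in control libraries. The endothelial gene CDH5 was at 13.8 and 14.1 RPKM in ISO against 18.1 RPKM in control a and 18.01 RPKM in control b, with KDR and TEK at 0. PECAM1, another endothelial gene, was at 0.165 and 0.189 RPKM in ISO against 0.124 and 0.0747 RPKM in control libraries and was called higher by limma-voom alone (adjusted p = 0.0487). KRT7, KRT18, KRT19 and CDH5 fell, and GATA3 and the fibroblast gene PDGFRB rose, and the part of these shifts in the results below was not tested. The PDGFRB call ended with the replicate block and without any 1 library, those of KRT18, KRT19 and GATA3 without ISO b, and all of these but that of CDH5 without the filter on low values. A smaller number of cells with a transcript and less of it per cell cannot be told apart in such bulk libraries.

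Of the 10 members, 2 fell with ISO, MXI1 and MLXIP, and 0 rose. Across all tested genes the call rate was 10.4%, made up of 6.21% lower and 4.18% higher. At an unadjusted p under 0.05 in the same limma test there were 4 members, which adds TXNIP (lower) and MXD4 (higher), and 27.4% of all tested genes. Without TMM scaling 1 member fell (MXI1) and 1 rose (MXD4), at a call rate of 13.4%, of which 4.12% lower and 9.3% higher. Limma-voom on the recovered reads called 3 members lower (MXI1, MLXIP and TXNIP) and 1 higher (MXD4), at a call rate of 18.1%, of which 10.5% lower and 7.6% higher. Without the filter on low values 0 members were called by limma, as against 1.05% of all 24052 genes then tested, and 4 members had an unadjusted p under 0.05, as against 18.7% of those genes. The ISO and control libraries did not overlap for 8 of the 10 members, which held for 57.2% of all tested genes. In 3 members ISO was higher (27.7% of all genes) and in 5 it was lower (29.6% of all genes). The median log2 fold change was -0.07 over the members and 0.00 (-0.0025) over all tested genes. The shifts of the members were small beside those of ARRDC3 or NDRG1, described below.

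**Figure D1:**
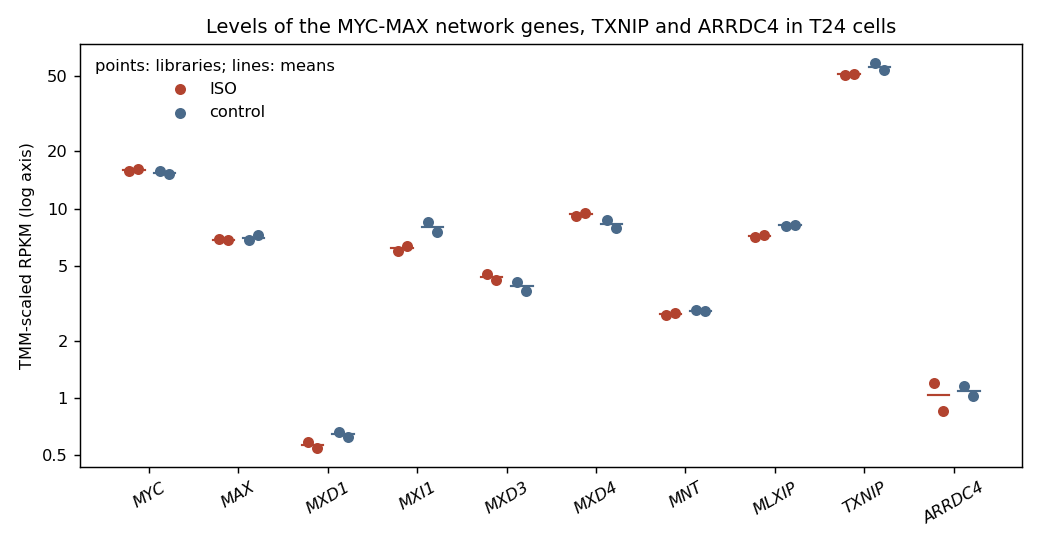
TMM-scaled RPKM (log axis) of the 10 genes in the 2 ISO and 2 control libraries; points are libraries and short lines are group means. TXNIP and MYC were the most abundant and MXD1 the least, and the ISO libraries of MXI1 (5.95 and 6.37) and MLXIP (7.10 and 7.24) lie below their control libraries.

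TXNIP stood at the top of the levels, at the 95.7th percentile of tested genes, with 53.4 RPKM over the 4 libraries. MYC followed with 15.7 RPKM (83.6th percentile), and MXD4 with 8.80 RPKM. MLXIP (7.67 RPKM), MXI1 (7.07 RPKM) and MAX (6.94 RPKM) lay close together, and their order depended on the group. In the ISO libraries MXI1 was below MAX, and in the control libraries it was above MAX, with no overlap in either. MXD3 (4.12 RPKM) and MNT (2.84 RPKM) came next. ARRDC4 (1.07 RPKM) and MXD1 (0.608 RPKM) were the scarcest, at the 30.7th and 23.5th percentiles, and rested on 122 to 207 and 121 to 185 reads per library.

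MYC, the activating member, lies at chr8:127735434-127742951 on the plus strand (GENCODE v44, GRCh38). It was at 15.8 and 16.2 RPKM in ISO libraries (4020 and 3456 reads) and at 15.7 and 15.2 RPKM in control libraries (4194 and 3848 reads). Both ISO libraries were above both control libraries, but ISO a exceeded control a by less than the spread within either group. The log2 fold change was 0.06 (95% interval -0.04 to 0.15, adjusted p = 0.415 from limma), so the interval leaves room for a change of -2.62% to 10.8%. MYC was not called in any alternative, and its lowest adjusted p was 0.0943, without TMM scaling.

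MAX, the shared partner of MYC and its antagonists, was at 6.88 and 6.83 RPKM in ISO libraries and at 6.79 and 7.26 RPKM in control libraries. The groups overlapped. Its log2 fold change was -0.03 (95% interval -0.15 to 0.08, adjusted p = 0.71 from limma) and turned to 0.03 without TMM scaling. The ratio of MYC to MAX, which does not depend on the scaling, was 2.30 and 2.38 in ISO libraries and 2.31 and 2.09 in control libraries, so it overlapped as well.

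MXI1, an antagonist that recruits SIN3, lies at chr10:110207605-110287365 on the plus strand. Its level was 5.95 and 6.37 RPKM in ISO libraries (1461 and 1311 reads), against 8.45 and 7.50 RPKM in control libraries (2181 and 1840 reads). Every ISO library was below every control library, and the means were 6.16 ± 0.297 RPKM in ISO and 7.98 ± 0.672 RPKM in control libraries (SD, n = 2 each). MXI1 fell by 22.3% (log2 fold change -0.36, standard error 0.069, 95% interval -0.53 to -0.20, adjusted p = 0.0256 from limma). The call held without TMM scaling (log2 fold change -0.30, adjusted p = 0.0403 from limma) and by limma-voom (adjusted p = 4.51e-04). It ended without ISO a, ISO b or control a (adjusted p = 0.11, 0.0723 and 0.0551 from limma) and without the filter on low values (adjusted p = 0.105 from limma), and held without control b (adjusted p = 0.00847 from limma).

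**Figure D2:**
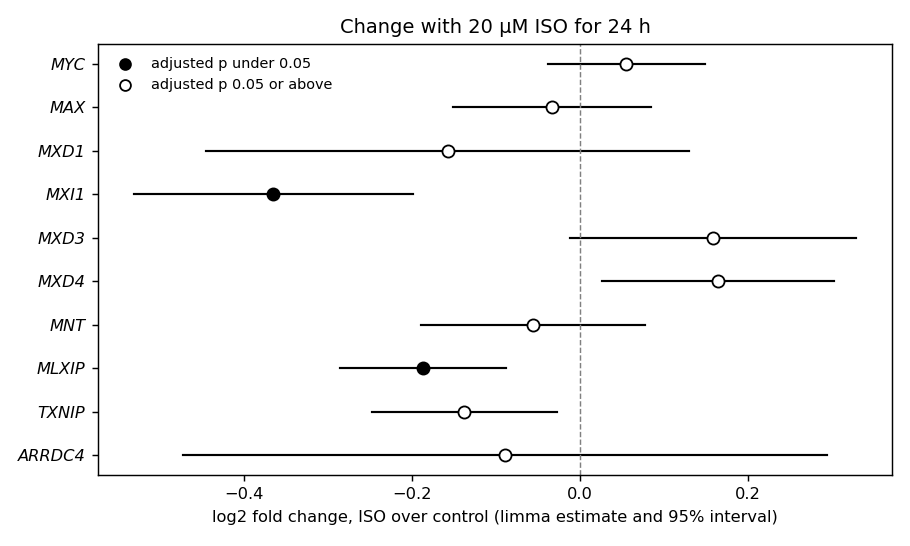
Log2 fold change of ISO over control with its 95% interval from limma for the 10 genes; filled points passed an adjusted p of 0.05. Only MXI1 (-0.36) and MLXIP (-0.19) passed in this fit, and the intervals of TXNIP and MXD4 exclude 0 before adjustment.

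MXD4, an antagonist of the same family linked to differentiation, was at 9.12 and 9.49 RPKM in ISO libraries and at 8.70 and 7.90 RPKM in control libraries. Both ISO libraries were higher. The log2 fold change was 0.16 (95% interval 0.03 to 0.30, adjusted p = 0.127 from limma), and MXD4 was called without TMM scaling (0.23, adjusted p = 0.0499 from limma) and by limma-voom with TMM (adjusted p = 0.0357). MXD3, the antagonist most often seen in dividing cells, was at 4.53 and 4.18 RPKM in ISO libraries and at 4.09 and 3.69 RPKM in control libraries. The groups did not overlap, and the log2 fold change was 0.16 (95% interval -0.01 to 0.33, adjusted p = 0.209 from limma).

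MXD1, the founding antagonist of the family, was at 0.591 and 0.547 RPKM in ISO libraries and at 0.667 and 0.626 RPKM in control libraries. These levels rest on 156 and 121 reads in ISO and 185 and 165 reads in control libraries, and the 95% interval of the log2 fold change was wide (-0.44 to 0.13, adjusted p = 0.451 from limma). MNT, a broadly expressed antagonist that binds MAX throughout the cell cycle, was at 2.76 and 2.82 RPKM in ISO libraries and at 2.91 and 2.90 RPKM in control libraries. Its log2 fold change was -0.06 (95% interval -0.19 to 0.08, adjusted p = 0.57 from limma), and on the deposited RPKM the groups overlapped and the sign turned (0.0056).

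RPKM are per length, so the antagonists can be set against each other within a library, where scaling drops out. The length joins all annotated exons of a gene, so the shares compare RPKM and not transcript numbers. Of the summed RPKM of MXD1, MXI1, MXD3, MXD4 and MNT, MXI1 made up 25.9% and 27.2% in ISO libraries and 34.1% and 33.2% in control libraries. MXD4 made up 39.7% and 40.5% in ISO libraries and 35.1% and 34.9% in control libraries. For both genes the groups were apart by more than their spread. MXD3 held 19.7% and 17.9% in ISO libraries and 16.5% and 16.3% in control libraries, MNT between 11.7% and 12.8% throughout, and MXD1 between 2.34% and 2.77%. The ratio of MXI1 to MXD4 was 0.653 and 0.672 in ISO libraries and 0.971 and 0.950 in control libraries. With 2 libraries against 2, the two-sided exact permutation test cannot go below p = 0.333, which is the value for each of these shares other than that of MNT and for the ratio. The summed level of the 5 antagonists was 23.0 and 23.4 RPKM in ISO libraries and 24.8 and 22.6 RPKM in control libraries and so overlapped. The ratio of this sum to MYC was 1.45 and 1.44 in ISO libraries and 1.58 and 1.49 in control libraries (exact permutation p = 0.333).

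**Figure D3:**
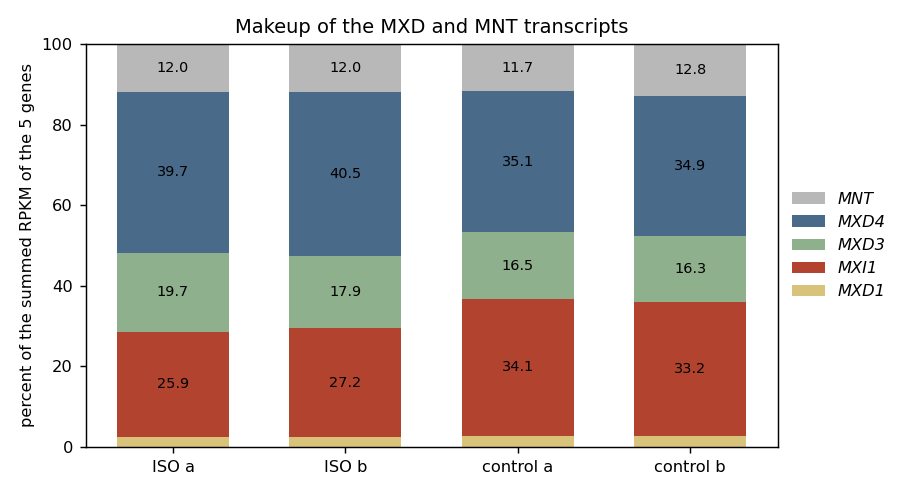
Percent of the summed RPKM of MXD1, MXI1, MXD3, MXD4 and MNT held by each gene, 1 bar per library. MXI1 takes 25.9% and 27.2% in ISO a and b against 34.1% and 33.2% in control a and b, and MXD4 takes 39.7% and 40.5% against 35.1% and 34.9%.

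MLXIP, the glucose sensor, lies at chr12:122078756-122147344 on the plus strand. It was at 7.10 and 7.24 RPKM in ISO libraries (4089 and 3494 reads), against 8.10 and 8.24 RPKM in control libraries (4910 and 4744 reads). Both ISO libraries were lower, by more than the spread in either group. MLXIP fell by 12.1% (log2 fold change -0.19, standard error 0.041, 95% interval -0.29 to -0.09, adjusted p = 0.0397 from limma). The call ended when any 1 library was left out (adjusted p from 0.108 to 0.146 from limma) and without TMM scaling (-0.12, adjusted p = 0.105 from limma), without the filter on low values (adjusted p = 0.0794 from limma) and with the replicate block (adjusted p = 0.0807 from limma), and it held by limma-voom (adjusted p = 0.00346).

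MLX, the partner of MLXIP, was at 10.7 and 10.5 RPKM in ISO libraries and at 12.1 and 11.96 RPKM in control libraries. It fell by the same measure (log2 fold change -0.18, adjusted p = 0.0326 from limma), a call that ended without TMM scaling (adjusted p = 0.077 from limma), with the replicate block, without the filter on low values and when any 1 library was left out. The ratio of MLXIP to MLX was 0.664 and 0.692 in ISO libraries and 0.670 and 0.689 in control libraries, so it overlapped. Of the other subunits, MGA, which also pairs with MAX, was at 2.39 and 2.50 RPKM in ISO libraries and 2.34 and 2.45 RPKM in control libraries (adjusted p = 0.824 from limma). MYCL stayed at or below 0.152 RPKM, and its adjusted p was 0.738 from limma. MYCN was at 0 in every library, and MLXIPL, the liver-type glucose sensor, was at 0 apart from 0.00597 RPKM in ISO b, so neither was tested.

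TXNIP lies at chr1:145992435-145996579 on the minus strand and was the best covered member, with 6386 to 9182 reads per library. It was at 50.8 and 50.9 RPKM in ISO libraries and at 58.3 and 53.7 RPKM in control libraries. The ISO libraries were nearly equal and below both control libraries, which differed from each other by more than control b differed from either ISO library. Its log2 fold change was -0.14 (95% interval -0.25 to -0.03, adjusted p = 0.114 from limma), a change of -15.8% to -1.86%. TXNIP was called by limma-voom (-0.14, adjusted p = 0.0356) and by no other alternative, and without TMM scaling its adjusted p was 0.298 from limma. ARRDC4 (chr15:97960703-97973833, plus strand) was at 1.21 and 0.863 RPKM in ISO libraries, which are the highest and the lowest of the 4, and at 1.17 and 1.03 RPKM in control libraries. The interval of its log2 fold change, -0.47 to 0.29, was the widest of the members (adjusted p = 0.767 from limma). The ratio of TXNIP to ARRDC4 overlapped between the groups, at 42.0 and 59.0 in ISO libraries and 49.99 and 52.4 in control libraries.

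Their relative ARRDC3, an alpha-arrestin that acts on membrane receptors, was called where TXNIP and ARRDC4 were not, and the difference between these genes was not tested. It was at 9.85 and 9.49 RPKM in ISO libraries, against 15.2 and 13.6 RPKM in control libraries. Its log2 fold change was -0.57, with a standard error of 0.060 (adjusted p = 0.00514 from limma), and ARRDC3 fell in every fit without 1 library and without TMM scaling as well, but was not called without the filter on low values. The ratio of ARRDC3 to TXNIP was 0.194 and 0.186 in ISO libraries and 0.261 and 0.253 in control libraries (exact permutation p = 0.333, the smallest possible). Of the other arrestins, ARRDC1, ARRDC2, ARRB1 and ARRB2 had log2 fold changes of -0.04, -0.01, -0.05 and -0.02 (adjusted p from 0.608 to 0.963 from limma), all 4 positive without TMM scaling, and ARRDC5 was at 0.

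The next question was whether the known targets of these factors moved. The lists below were written from general knowledge, but with earlier results of these data known. The rates over all genes are therefore given for scale only, and no list was tested as a set. Of 15 tested targets of MondoA and its relative ChREBP, 8 fell and 1 rose, with a median log2 fold change of -0.28, beside call rates over all genes of 6.21% lower and 4.18% higher. TXNIP and ARRDC4 are not among the 8. Those with the smallest p were SLC2A1, the glucose transporter GLUT1 (log2 fold change -0.54, adjusted p = 0.00368 from limma), BHLHE40, a clock-linked repressor (-0.51), and ARRDC3. SCD, a fatty acid desaturase, rose (0.48, adjusted p = 0.00194 from limma). Of those that fell, HK2, SLC2A1, PFKFB3, PDK1 and BHLHE40 are also known as hypoxia-inducible genes. The targets that did not fall were not sorted in this way, and the cause of the falls was not tested. Without TMM scaling 8 fell, without the filter on low values 1 did, without ISO b 4 did, and in the other fits without 1 library 7 fell. RGS16 and PKLR were not tested.

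MYC targets were split by class. Over all tested genes, limma called 6.21% lower and 4.18% higher, and 27.4% had an unadjusted p under 0.05. Without TMM scaling these rates were 4.12%, 9.3% and 30.8%, in that order. By limma-voom 10.5% were called lower and 7.6% higher. Of 32 nucleolar and ribosome biogenesis targets, 0 rose and 2 fell, namely BOP1 (-0.19) and PES1 (-0.20), subunits of 1 complex of the large ribosomal subunit pathway (adjusted p = 0.03 and 0.0325 from limma). Their median was -0.05 and turned to 0.01 without TMM scaling, where 0 were called by limma and 7 had an unadjusted p under 0.05. Without any 1 library 0 were called by limma either, with 5 to 7 at an unadjusted p under 0.05, and by limma-voom 3 fell. Of 17 nucleotide and polyamine synthesis targets, 0 were called by limma, 6 had an unadjusted p under 0.05 and limma-voom called 1. Without TMM scaling 6 of the 17 rose. Of 8 tested cell cycle targets, E2F2, an S-phase transcription factor, rose (0.36, adjusted p = 0.0296 from limma) and 0 fell, with 4 of the 8 at an unadjusted p under 0.05. Without TMM scaling 3 of the 8 rose. E2F2 was called in 1 of the 4 fits without 1 library, and CCND2 was not tested.

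Metabolic and splicing targets formed another class. Of 15 tested, 9 fell, beside 6.21% of all tested genes, and the median log2 fold change was -0.29. SLC7A5 and SLC3A2, which together carry large neutral amino acids into the cell, had log2 fold changes of -1.18 and -0.93 (adjusted p = 1.93e-04 from limma for both). SHMT2, which makes glycine from serine in mitochondria, fell too (-0.41, adjusted p = 0.00272 from limma). HK2 and SLC2A1 belong to this list and to the MondoA list. Without 1 library, 6 to 8 of the list fell, the fewest without ISO b, and 6 fell without the filter on low values. Of 9 tested genes that MYC is known to repress, 0 rose and 3 fell, namely NDRG1 (-1.79), CDKN1A (-0.36) and ITGB1 (-0.21), with adjusted p = 3.09e-04, 0.00988 and 0.0171 from limma. Without the filter on low values 1 of this list fell, and without 1 library 2 to 4 did. NDRG1 is also known to be induced by hypoxia and CDKN1A by p53, and neither was tested as a cause here. The paper's discussion states that CDKN1A and CDKN1B were upregulated with ISO, in its own and in previous studies. For CDKN1A this is opposite to the direction here. CDKN1B was also lower here (log2 fold change -0.20), not called by limma (adjusted p = 0.104) but called by limma-voom (adjusted p = 0.019).

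**Figure D4:**
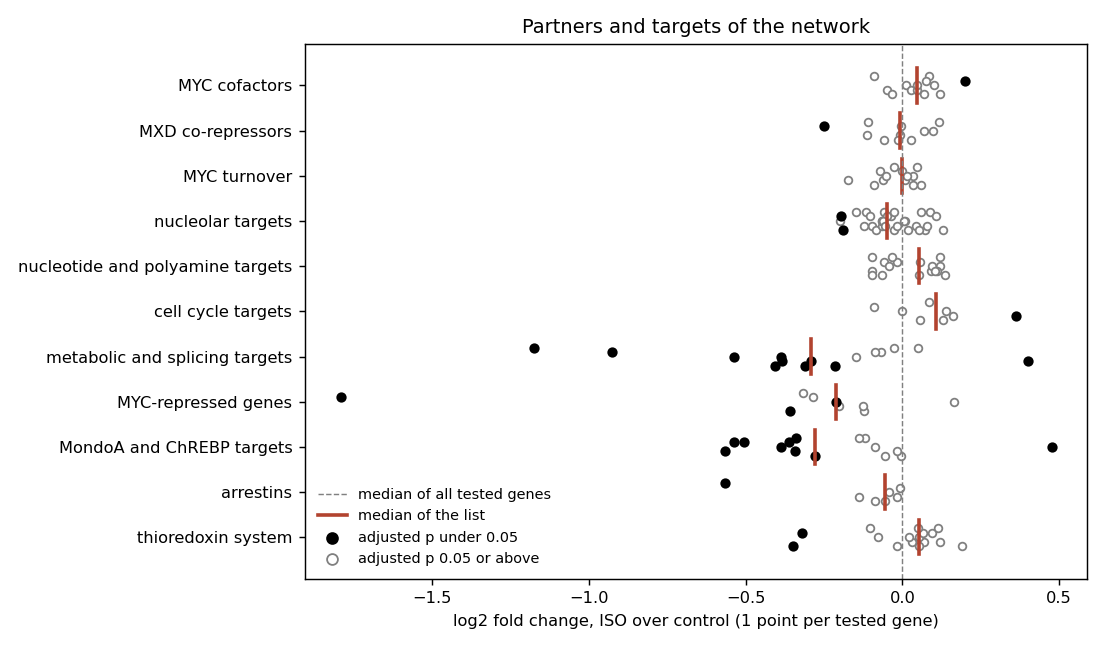
Log2 fold change of ISO over control for each tested gene of the partner and target lists; filled points passed an adjusted p of 0.05, red bars are list medians and the dashed line is the median of all tested genes. The medians of the metabolic (-0.29), MYC-repressed (-0.21) and MondoA (-0.28) lists lie to the left of the others.

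Few cofactors and regulators of the network passed the test. Over all tested genes limma called 6.21% lower and 4.18% higher, and 27.4% had an unadjusted p under 0.05. By limma-voom the call rate was 18.1%. HCFC1, a chromatin cofactor of MYC, rose (0.20, adjusted p = 0.0273 from limma), and the other 12 MYC cofactors did not pass. HCFC1 was called in 0 of the 4 limma fits without 1 library and not with the replicate block. Among 11 co-repressor genes, SIN3A, the scaffold that MXD proteins bind, and the deacetylase HDAC2 both had a log2 fold change of -0.01 (adjusted p = 0.943 and 0.931 from limma). Of 13 genes that control the turnover of the MYC protein, such as the ubiquitin ligase subunit FBXW7 (0.00), 0 were called by limma, 1 had an unadjusted p under 0.05 and limma-voom called 1. In the thioredoxin system, to which TXNIP binds, 0 of 16 genes rose and 2 fell, TXNRD1, the cytosolic thioredoxin reductase (-0.32, adjusted p = 0.0103 from limma), and NLRP3, an inflammasome sensor that binds TXNIP (-0.35, adjusted p = 0.0471 from limma). TXNRD1 was called in all 4 fits without 1 library and NLRP3 in 1 of them, and NLRP3 was not called without TMM scaling (adjusted p = 0.0766 from limma). Without TMM scaling 4 of the 16 rose and 1 fell, beside 9.3% higher and 4.12% lower over all tested genes. Without the filter on low values, limma called 0 genes of the cofactor, co-repressor, turnover, nucleolar, nucleotide, cell cycle and thioredoxin lists. In that order, 3, 3, 1, 6, 6, 4 and 6 of them had an unadjusted p under 0.05. Of the 24052 genes then tested, 1.05% were called and 18.7% had such a p. The ratio of TXNIP to TXN overlapped, at 0.224 and 0.244 in ISO libraries and 0.254 and 0.234 in control libraries.

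Genes with the pattern most like a member were sought among protein-coding genes of a mean RPKM within 2-fold, by the Euclidean distance of the 4 centred log2 values. For MXI1 they were PREX1, a guanine nucleotide exchange factor for Rac (distance 0.0423), TMC6 (0.0474) and TBC1D8 (0.0485) among 4523 candidates. For TXNIP they were FBXW5 (0.0233), the mitochondrial prohibitin PHB2 (0.0233) and CRIP2 (0.0260) among 1146. For MYC they were LONP2, a peroxisomal protease (0.0107), RAPGEF1 (0.0122) and GTF3C2 (0.0132) among 3387. These distances rest on 4 libraries in 2 groups.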

How the data were processed

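RNA of T24 cells was sequenced in 2 ISO and 2 control libraries. With Biomedical Genomics Workbench the authors mapped the reads to hg38 and deposited RPKM per gene, before TMM scaling and on a linear scale; the annotation is not given in the sources used here. The authors' group means were not used. Reads were recovered with the exon lengths of GENCODE v44 for 47416 of 47432 genes, and 98.8% of nonzero values were whole to within 0.05 reads.

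The study's methods apply TMM, so RPKM were divided by TMM factors (own code without weights, trimming 30% of log ratios and 5% of levels per side), and log2(RPKM + 0.1) was tested with a variance trend in limma 3.58.1 (R 4.3.3), after checks on simulated data. limma-voom used recovered reads with a mean of at least 10. Fold changes on this scale understate changes near the pseudocount. Alternatives were no scaling, median-of-ratios scaling, other pseudocounts and filters, a replicate block, limma-voom, and each library left out, where the lone library is assumed to vary like the other group. A crossed block was added after seeing the data. Named genes were all members, other subunits, all arrestins, up to 3 called genes per list and direction, and the nearest patterns. PFKFB3, PDK1, HK2, CDKN1B, SIN3A, HDAC2, FBXW7 and the marker genes were named besides, after their values were seen. A few genes that the rule selects are not reported here. Members, lists and the choice of scaling were made with earlier results of these data known. Python 3.11.15 made tables and figures.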

Additional observations from a re-analysis of the deposited data

How the results depend on the processing

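Over the alternatives, 111 of 129 values of single members kept their sign and their side of the threshold. Most of these were members that were not called and stayed so. Only a called member can lose a call, and 11 values did, 4 of MXI1 and 7 of MLXIP. The count of called genes, 1590, became 252 without the filter on low values, 2727 with limma-voom, and 513 to 998 when 1 library was left out. Members that rose numbered 1 without TMM scaling and 1 with limma-voom, MXD4 in both. Members that fell numbered 1 without TMM scaling, 0 without the filter, 1 with the replicate block and 0 to 1 without 1 library. The sign turned for MAX (0.029) and MNT (0.0056) without TMM scaling, for MAX without control b (range without 1 library -0.081 to 0.013) and for ARRDC4 without ISO b (range -0.31 to 0.13). The causes were not tested.

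Pairing by letter was not used, since no label ties libraries with 1 letter together and their differences did not go together (Pearson r = -0.126 across 6209 genes above 5 RPKM, which are not independent replicates). The replicate block gave 1122 called genes and ended the call of MLXIP (adjusted p = 0.0807 from limma). With the letters crossed 1601 genes were called, and 2 members fell.

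Replicate libraries differed by more than sampling noise, with a mean chi-square per gene of 3.83 in ISO and 3.15 in control. Depth limits MXD1 and ARRDC4 most.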
